A study of Mus musculus with 14 samples.

Results

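The genes of oxidative phosphorylation, the chain of mitochondrial complexes that turns the oxidation of fuels into ATP, were followed in mouse tibialis anterior muscle treated with follistatin. They were taken by symbol: every gene whose name starts with Nduf, Uqcr, Cox4, Cox5, Cox6, Cox7, Cox8 or Atp5, together with Sdha, Sdhb, Sdhc, Sdhd and Cyc1. This gave 93 of the 24359 genes used, and no pseudogene met the rule. Complex I was represented by 38 genes with 7 further complex I assembly factors, complex II by 4, complex III by 9, complex IV by 18 and complex V by 16, with Atp5sl as a further gene. All libraries came from C57Bl/6 mice and differed by treatment (follistatin or control) and by days of treatment. Follistatin libraries numbered 4 at day 3, 2 at day 7 and 2 at day 14, against 3, 2 and 1 control libraries. Days 7 and 14 were joined as 1 later set of 4 follistatin and 3 control libraries, as in the series' own design. The mode of follistatin delivery, what control muscles received, the age and sex of the mice and whether libraries came from separate animals are not given in the sources used here, so a p-value here speaks of the spread among libraries and of nothing else.

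Complex I takes electrons from NADH and complex II takes them from succinate. Both pass them through ubiquinone to complex III and then, by cytochrome c, to complex IV, which reduces oxygen. Complexes I, III and IV pump protons, and complex V, the ATP synthase, lets them flow back to make ATP. The files used here hold the nuclear genes of these complexes and no gene of the mitochondrial DNA list. Skeletal muscle fibres with much oxidative metabolism hold more of these proteins than fast glycolytic fibres, and the tibialis anterior of the mouse is mainly fast. Follistatin binds activins and myostatin, which limit muscle growth.

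Expression was given as FPKM, a fragment density scaled by transcript length and library size, so levels can be set side by side between genes. Log2 changes are follistatin minus control on log2(FPKM + 1), tested with limma across all genes, with p-values adjusted by the Benjamini-Hochberg method and called under 0.05. Day 14 held 1 control library, so it was not tested alone. Fst, the follistatin gene, lay at 57.6 ± 8.16 FPKM in follistatin libraries of day 3 (SD, n = 4) and at 1.18 ± 0.212 FPKM in control libraries (n = 3). At days 7 and 14 it lay at 878 ± 568 FPKM in follistatin and 1 ± 0.181 FPKM in control libraries (n = 4 and 3). The follistatin libraries of day 7 held 367 and 407 FPKM and those of day 14 held 1315 and 1421 FPKM, so the later set joins unlike Fst levels. The log2 changes were 4.74 (SE 0.12, adjusted p = 6.5e-07 by limma) and 8.51 (SE 0.51, adjusted p = 0.00084). The groups did not overlap in either set (exact two-sided permutation p = 0.0286 each time, and no lower p is possible with 35 arrangements). The FPKM of a library summed to 364513 to 532859. Of 8 muscle fibre markers, Acta1, Ckm, Myh4, Myh1, Tnnt3 and Mylpf were listed at 0 in every follistatin library of days 7 and 14, and Acta1, Myh4, Myh1 and Tnnt3 also in every control library of those days. The authors' deposited tables flag them there as genes with too many reads. No member carried that mark. In the day 3 libraries the 8 markers summed to 62098 to 73503 FPKM in follistatin and 72482 to 78417 FPKM in control libraries, with Myh4 listed at 0 in the follistatin libraries.

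The summed FPKM of the subunit genes overlapped between follistatin and control for every complex at day 3, and for every complex but II at days 7 and 14; at the later days the order of the groups depended on the scale, as described below. Complex I subunits summed to 11374, 11825, 12736 and 12756 FPKM in the follistatin libraries of day 3, against 12211, 14286 and 12396 FPKM in the controls. Control replicate 2 was the highest of the 7 libraries. For complex V, the ATP synthase, the day 3 sums were 12387 ± 585 FPKM in follistatin and 12965 ± 1066 FPKM in control libraries. The sums of complexes II, III and IV at day 3 were 1623 ± 81.2, 4492 ± 353 and 8989 ± 615 FPKM in follistatin, against 1676 ± 115, 4854 ± 351 and 9671 ± 999 FPKM in control libraries.

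Later, at days 7 and 14, the sums of complexes I, III, IV and V spread more widely among follistatin libraries than among controls. Complex I summed to 15631 and 12072 FPKM in the follistatin libraries of day 7 and to 11633 and 16431 FPKM in those of day 14, against 14672 and 13163 FPKM in the controls of day 7 and 14414 FPKM in that of day 14. In each follistatin pair, 1 library lay above all 3 controls and the other below them. The same held for complex IV, at 11804, 8485, 8668 and 12611 FPKM in follistatin libraries, against 11160.4, 9680.2 and 10858 FPKM in control libraries. For complex II, all 4 of its follistatin sums, 1573, 1528, 1364 and 1588 FPKM, lay below all 3 control sums, 1773, 1599 and 1624 FPKM. Follistatin and control means were 13942 ± 2441 and 14083 ± 807 FPKM for complex I, 1513 ± 103 and 1665 ± 93.8 for complex II, 5449 ± 757 and 5281 ± 243 for complex III, 10392 ± 2124 and 10566 ± 782 for complex IV, and 16512 ± 2433 and 16038 ± 1110.3 for complex V.

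The later sums changed their order with the scale. Rescaled by the median ratio over genes, the complex II sums overlapped, at 1648, 1441, 1402 and 1637 in follistatin libraries, against 1717, 1476 and 1592 in control libraries, and the other complexes overlapped too. As a share of all FPKM of a library, complex II ran from 0.366% to 0.395% in follistatin and from 0.329% to 0.347% in control libraries, so all follistatin shares lay above all controls. The shares of complexes I, III and V lay likewise, at 3.12% to 3.79%, 1.27% to 1.46% and 3.8% to 4.4% in follistatin, against 2.71% to 2.93%, 1.05% to 1.09% and 3.09% to 3.37% in control libraries. Complex IV overlapped, at 2.19% to 2.91% in follistatin and 1.99% to 2.21% in control libraries, and all members together made up 10.8% to 12.8% and 9.2% to 9.89%. The totals behind these shares were 364513 to 433552 FPKM in follistatin and 485755 to 510584 FPKM in control libraries, and they leave out the genes listed at 0, with Ckm and Mylpf among them in follistatin libraries only. The part of these genes in the shares was not tested. At day 3 the shares of every complex overlapped.

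**Figure D1:**
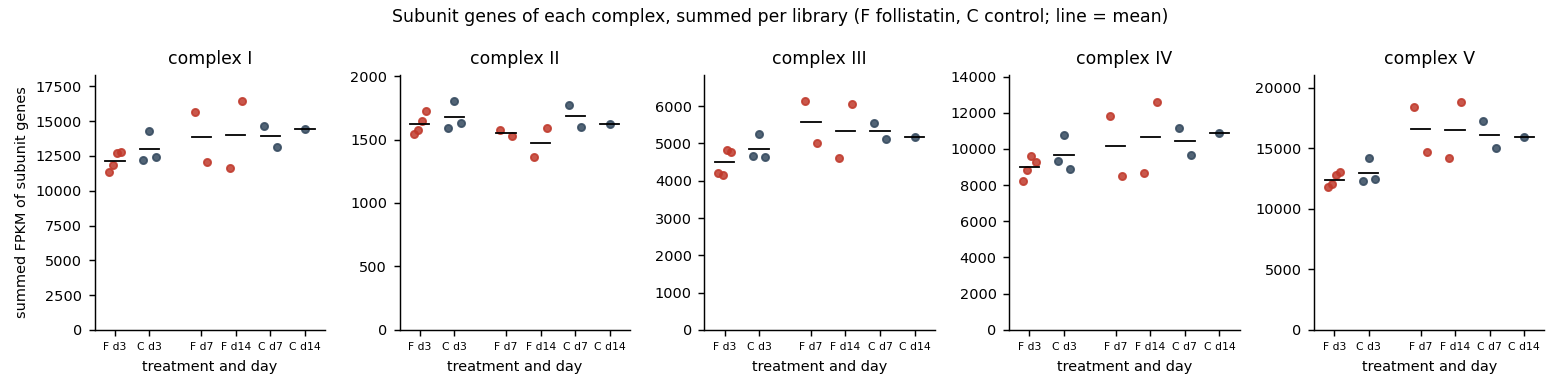
Summed FPKM of the subunit genes of each complex (vertical axis, from 0) in each library, with follistatin (F, red) left of control (C, dark) by day; the line is the mean. Follistatin and control libraries overlap for every complex at day 3, and for every complex but II at days 7 and 14 on this scale.

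At day 3, no member passed the test. Of 93 members, 91 had a mean of at least 1 FPKM and were tested, and 0 were called at an adjusted p under 0.05 (limma, Benjamini-Hochberg over all 11268 genes tested), where 1.49% of all genes were called. An unadjusted p under 0.05 was found for 7 members, 2 with positive and 5 with negative changes, against 15.2% of all genes. Most members had a small negative change: 70 lay below 0 and 21 above, with a median log2 change of -0.08, against 0.012 over all genes tested. The share above 0 was 23.1% of members and 52.6% of all genes tested. The member medians of single libraries had an SD of 0.093 between libraries. That SD is not a standard error of the change between groups, and the member median was not tested. Without control replicate 2, which held the highest sums of all 5 complexes at day 3, the member median was -0.01. The 95% intervals bound the size of any change: for 83 of the 91 members (91.2%) the interval lay within a 1.5-fold change either way, against 76.4% of all genes tested.

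In the later set, again no member passed. Of 90 tested members 0 were called by limma, where 5.5% of the 11047 genes tested were called. An unadjusted p under 0.05 was found for 4 members, 2 in each direction, against 28.3% of all genes. Of the members, 44 lay above 0 and 46 below, with a median of -0.0009, against -0.092 over all genes. The share above 0 was 48.9% of members and 39.2% of all genes. Rescaling the libraries by their median ratio moved all genes by about 0.09 (median -0.0011) and gave 389 called genes higher and 239 lower, where 247 were higher and 361 lower without it. On that scale the member median was 0.11, 64 of 90 members lay above 0, against 49.8% of all genes, and still 0 members were called. Quantile normalization went the other way, with a member median of -0.052 against -0.018 over all genes and with 414 called genes higher and 326 lower. There 30 of 90 members lay above 0, against 47.7% of all genes. Among members the unadjusted p was under 0.05 for 4 positive and 11 negative changes, and 2 members, Sdha and Sdhc, were called lower. The intervals were wider than at day 3, and 67 of 90 members (74.4%) had an interval within a 1.5-fold change, against 50.1% of all genes.

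The change at days 7 and 14 minus that at day 3 was tested over all 14 libraries. None of 91 members was called, where 0.0884% of the 11306 genes tested were, and 1 member had an unadjusted p under 0.05, where 14.8% of all genes did. That member was Sdha, with a difference of -0.23 on the log2 scale (adjusted p = 0.314 by limma). The median difference was 0.06 over members and -0.11 over all genes tested. After rescaling by the median ratio these were 0.18 and 0.0045, and with quantile normalization -0.034 and -0.017, so the sign of the member median depended on the scaling. No member was called under either.

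**Figure D2:**
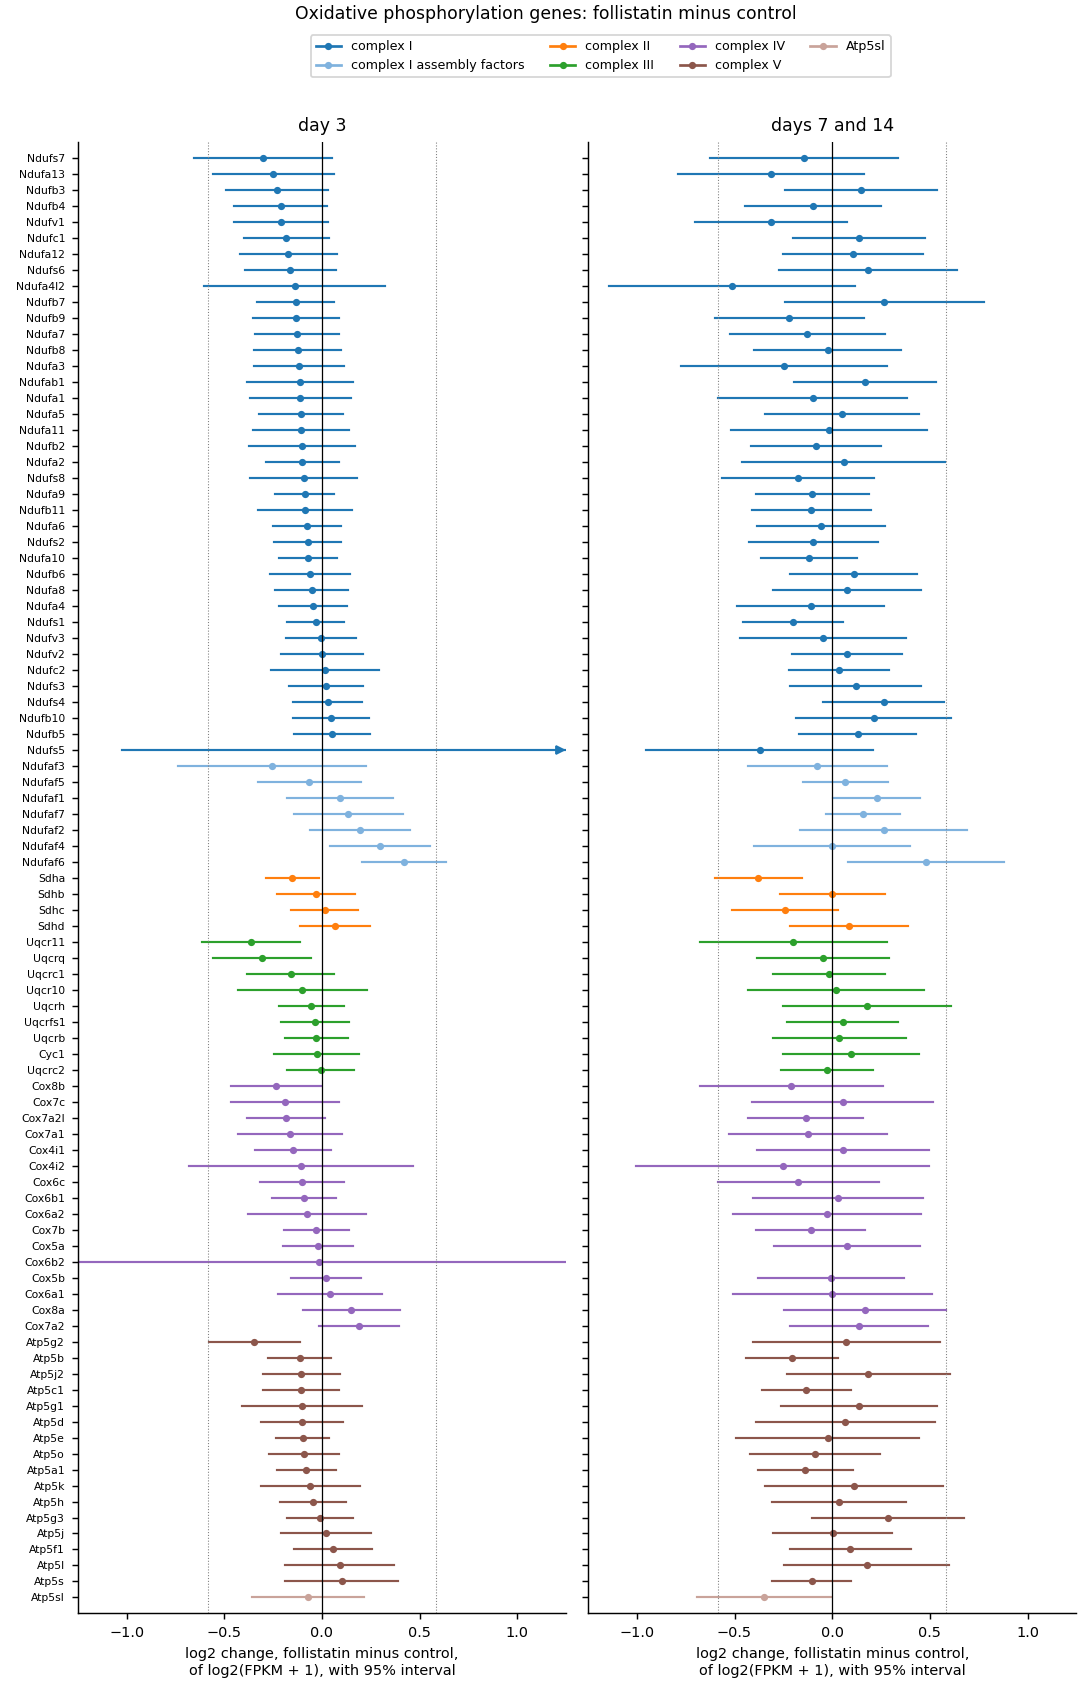
Log2 change of each tested member, follistatin minus control, with its 95% interval, at day 3 (left) and at days 7 and 14 (right), grouped by complex and ordered by the day 3 change; dotted lines mark a 1.5-fold change. The arrow marks Ndufs5, whose day 3 change of 1.87 lies off the axis, and the intervals of Ndufs5 and Cox6b2 run past it at day 3.

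A few members fell under the filter on low values, a mean of 1 FPKM over the set. Cox8c and Cox7b2, isoforms best known from testis, were not tested in either set. Cox8c was listed at 0 in all libraries but control day 7 replicate 2, at 0.2 FPKM, and Cox7b2 did not exceed 1.6 FPKM in follistatin or 1.28 FPKM in control libraries. Cox6b2, a further testis isoform, passed the filter at day 3 only, with 0.594, 0.854, 0 and 2.21 FPKM in follistatin and 0, 0 and 4.57 FPKM in control libraries. Its log2 change there had a 95% interval of -1.48 to 1.45 (adjusted p = 0.994). No fold change is given for Cox8c and Cox7b2.

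Complex I. Ndufa4 held the highest level of the genes named for complex I, at 1482 ± 93.2 FPKM in follistatin and 1533 ± 126 FPKM in control libraries of day 3, and at 1613 ± 319 and 1725 ± 185 FPKM at days 7 and 14. Its protein was named as a complex I subunit and is now known as a subunit of complex IV. By its symbol it was counted here in the sums, shares and medians of complex I, and those of complex IV leave it out. The 38 subunit genes had a median log2 change of -0.10 at day 3, with 6 above 0, and of -0.053 at days 7 and 14, with 16 above 0. The 7 core subunit genes, whose proteins form the catalytic arm shared with bacteria, had medians of -0.073 and -0.15, against -0.11 and -0.023 for the 31 others.

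The smallest p-values among complex I subunits belonged to Ndufv1, Ndufb3 and Ndufb4 at day 3 and to Ndufv1, Ndufs4 and Ndufa4l2 in the later set. Ndufv1, the core subunit that binds NADH, lay at 203, 259, 268 and 238 FPKM in the follistatin libraries of day 3, against 274, 304 and 259 FPKM in the controls. The groups overlapped (log2 change -0.21, 95% interval -0.45 to 0.032, adjusted p = 0.4 by limma). It later lay at 284 and 188 FPKM (day 7) and 181 and 225 FPKM (day 14) in follistatin, against 275 and 246 FPKM (day 7) and 288 FPKM (day 14) in control libraries, again with overlap (log2 change -0.31, 95% interval -0.70 to 0.077, adjusted p = 0.257). Ndufb3 and Ndufb4, accessory subunits of the membrane arm, had log2 changes of -0.23 and -0.21 at day 3 (adjusted p = 0.391 and 0.385) and of 0.15 and -0.10 later (adjusted p = 0.579 and 0.684). Ndufs4, an accessory subunit of the NADH-binding arm, had 0.029 and 0.26 (adjusted p = 0.9 and 0.232). Ndufa4l2, a relative of Ndufa4 known to be induced by low oxygen in other cells, lay at 5.91 ± 2.04 FPKM in follistatin and 6.38 ± 0.172 FPKM in control libraries of day 3 and at 5.22 ± 2.43 and 7.39 ± 0.266 FPKM later (log2 change -0.51, 95% interval -1.14 to 0.12, adjusted p = 0.251).

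Ndufs5, a further accessory subunit, had very unequal levels among the control libraries of day 3. It lay there at 34, 35, 78.6 and 23.5 FPKM in follistatin and at 13.6, 86.3 and 0.0021 FPKM in control libraries, so that control replicate 3 was near 0 and control replicate 2 the highest of the set. Its transcript is at least 95% identical over 200 bases or more to BC002163, a gene at another place, so a read may fit both. Later values were 78.3 and 46.3 FPKM (day 7) and 42.4 and 63.8 FPKM (day 14) in follistatin and 86.1 and 82.4 FPKM (day 7) and 54.1 FPKM (day 14) in control libraries.

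The 7 complex I assembly factors, which build the complex and are not part of it, had medians of 0.13 at day 3 and 0.16 at days 7 and 14, with 5 of 7 above 0 in each set and none called. Ndufaf6 (chromosome 4, 11051045 to 11076205, minus strand, in GENCODE M21 on GRCm38), which acts early in assembly, had the smallest p of all members at day 3. It lay at 25, 21.9, 23.7 and 27.4 FPKM in follistatin, against 18.7, 18.9 and 16.5 FPKM in control libraries. All 4 follistatin libraries lay above all 3 controls (log2 change 0.42, 95% interval 0.21 to 0.64, adjusted p = 0.0757 by limma). It later lay at 34.9 and 31 FPKM (day 7) and 21.7 and 24.5 FPKM (day 14) in follistatin, against 19.5 and 21.5 FPKM (day 7) and 17.5 FPKM (day 14) in control libraries. The lowest follistatin library was just above the highest control (log2 change 0.48, 95% interval 0.08 to 0.88, adjusted p = 0.124). For Ndufaf4 too, all follistatin libraries of day 3 lay above the controls, at 19.8 ± 1.99 FPKM in follistatin and 16 ± 2.08 FPKM in control libraries (log2 change 0.29, 95% interval 0.039 to 0.55, adjusted p = 0.26), and the later change was -0.0017. Ndufaf1 was at 41.2 ± 2.65 FPKM in follistatin and 35 ± 0.445 FPKM in control libraries of days 7 and 14, without overlap (log2 change 0.23, 95% interval 0.0065 to 0.45, adjusted p = 0.167).

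Complex II. Sdha (chromosome 13, 74322254 to 74350280, minus strand), the catalytic flavoprotein that oxidizes succinate in both the citric acid cycle and the chain, had the smallest p of all members at days 7 and 14. It lay at 407 and 448 FPKM (day 7) and 409 and 417 FPKM (day 14) in follistatin, against 586 and 531 FPKM (day 7) and 525 FPKM (day 14) in control libraries. All 4 follistatin libraries lay below all 3 controls, with means of 421 ± 19 and 547 ± 33.7 FPKM, and the change did not pass (log2 change -0.38, 95% interval -0.60 to -0.15, adjusted p = 0.0599 by limma). At day 3 it lay at 498, 505, 494 and 548 FPKM in follistatin, against 555, 582 and 566 FPKM in control libraries, again without overlap (log2 change -0.15, 95% interval -0.29 to -0.017, adjusted p = 0.27). The day 7 libraries alone gave -0.38 (adjusted p = 0.33). Over 19 alternative settings the later log2 change ran from -0.52 to -0.27, with an adjusted p of 0.00331 to 0.33. It passed with quantile normalization (adjusted p = 0.0398) and with all 14 libraries in 1 fit (adjusted p = 0.00331).

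The other 3 genes of the complex had smaller changes. Sdhb, the iron-sulfur subunit, lay at 586 and 500 FPKM (day 7) and 456 and 503 FPKM (day 14) in follistatin and at 545 and 505 FPKM (day 7) and 480.4 FPKM (day 14) in control libraries (95% interval of the log2 change -0.27 to 0.27, adjusted p = 1). Sdhc, a membrane anchor, lay at 266 and 256 FPKM (day 7) and 231 and 299.6 FPKM (day 14) in follistatin and at 326 and 290.4 FPKM (day 7) and 314 FPKM (day 14) in control libraries, where 1 follistatin library reached the controls (log2 change -0.24, 95% interval -0.51 to 0.031, adjusted p = 0.218). Sdhd, the other anchor, had a log2 change of 0.085 (adjusted p = 0.68). At day 3, Sdhb, Sdhc and Sdhd had changes of -0.03, 0.014 and 0.067 (adjusted p = 0.912, 0.953 and 0.747).

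Complex III. All 9 genes were below 0 at day 3, with a median of -0.054, and 5 of 9 lay above 0 at days 7 and 14, with a median of 0.021. The day 3 values were led by a pair of small subunits. Uqcr11 (chromosome 10, 80402997 to 80406830, minus strand) lay at 285, 331, 396 and 331 FPKM in follistatin, against 421, 468 and 402 FPKM in control libraries. The highest follistatin library lay just below the lowest control (log2 change -0.36, 95% interval -0.62 to -0.11, adjusted p = 0.171 by limma). Uqcrq lay at 449.9, 418, 549 and 501 FPKM in follistatin, against 537, 666 and 577 FPKM in control libraries, with 1 follistatin library inside the control range (log2 change -0.31, 95% interval -0.56 to -0.057, adjusted p = 0.23). Later, Uqcr11 lay at 563 and 318 FPKM (day 7) and 318 and 397 FPKM (day 14) in follistatin and at 444 and 410.2 FPKM (day 7) and 484 FPKM (day 14) in control libraries, with the groups mixed (log2 change -0.20, 95% interval -0.68 to 0.28, adjusted p = 0.538), and Uqcrq had a change of -0.046 (adjusted p = 0.853). Uqcrc1, a core subunit, had changes of -0.16 and -0.016 in the 2 sets (adjusted p = 0.497 and 0.941). Cyc1, the cytochrome c1 that hands electrons to cytochrome c, lay at 398 ± 47.6 FPKM in follistatin and 403 ± 16.7 FPKM in control libraries of day 3 and at 470.1 ± 89.9 and 435 ± 13.7 FPKM later. Uqcrb, the highest gene of the complex on average over all libraries, though not at day 3, had changes of -0.03 and 0.036, and Uqcrh, the hinge protein, of -0.054 and 0.18 (adjusted p of 0.887, 0.885, 0.789 and 0.541).

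Complex IV. Several subunits of cytochrome c oxidase have a form found in heart and skeletal muscle and a form found in most tissues. In these muscles the muscle forms prevailed in every library. Cox7a1, the muscle form of subunit VIIa and on average over all libraries the highest gene of the complex, lay at 1519.7 ± 189 FPKM in follistatin and 1701 ± 222 FPKM in control libraries of day 3, while Cox7a2, the widespread form, lay at 262 ± 15.2 and 231 ± 28.7 FPKM. Cox8b, the muscle form of subunit VIII in the mouse, lay at 1026 ± 76.5 and 1212 ± 165 FPKM, and Cox8a at 55.4 ± 4.34 and 50 ± 7.65 FPKM. Cox6a2 and Cox6a1 lay at 992 ± 152 and 49.3 ± 5.48 FPKM in follistatin, against 1042 ± 134 and 47.9 ± 6.09 FPKM in control libraries.

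The promoters of Cox7a1, Cox7a2, Cox8b and Cox8a are shown because the muscle and widespread forms of these subunits give the ratios described next. Each sequence below runs from 250 bases before to 50 bases after the gene's start, from RefSeq on GRCm38.p6, 5′ to 3′ on the gene's strand, with capitals where a motif was found.
Cox7a1 (chr7:30183921-30184220, plus strand): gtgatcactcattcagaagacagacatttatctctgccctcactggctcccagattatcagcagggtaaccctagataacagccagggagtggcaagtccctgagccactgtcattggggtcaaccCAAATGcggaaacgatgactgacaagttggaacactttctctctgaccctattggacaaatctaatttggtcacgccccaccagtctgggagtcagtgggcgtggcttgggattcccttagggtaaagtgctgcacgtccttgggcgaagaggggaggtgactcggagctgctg
Cox7a2 (chr9:79759804-79760103, minus strand): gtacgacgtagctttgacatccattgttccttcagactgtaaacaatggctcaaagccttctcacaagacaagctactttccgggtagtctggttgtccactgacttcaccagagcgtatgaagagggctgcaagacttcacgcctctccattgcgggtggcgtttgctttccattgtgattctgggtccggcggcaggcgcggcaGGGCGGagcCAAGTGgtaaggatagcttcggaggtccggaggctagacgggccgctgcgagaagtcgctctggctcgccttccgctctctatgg
Cox8b (chr7:140900397-140900696, minus strand): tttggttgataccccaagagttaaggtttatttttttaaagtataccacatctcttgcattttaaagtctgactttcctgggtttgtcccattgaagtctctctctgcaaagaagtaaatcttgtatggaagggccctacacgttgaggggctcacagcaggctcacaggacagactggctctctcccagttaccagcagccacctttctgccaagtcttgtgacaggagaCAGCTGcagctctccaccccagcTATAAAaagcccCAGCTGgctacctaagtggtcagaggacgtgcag
Cox8a (chr19:7217567-7217866, minus strand): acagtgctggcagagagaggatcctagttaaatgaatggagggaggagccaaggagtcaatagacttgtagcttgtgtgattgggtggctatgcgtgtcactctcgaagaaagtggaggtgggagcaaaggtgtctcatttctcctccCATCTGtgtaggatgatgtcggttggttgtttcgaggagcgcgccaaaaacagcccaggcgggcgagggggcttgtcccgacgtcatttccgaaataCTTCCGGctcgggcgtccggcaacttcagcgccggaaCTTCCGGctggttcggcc
Motifs were searched on both strands. The E box was CANNTG, bound by factors such as MyoD. The ETS site was CCGGAAG. The NRF1 site was GCGCANGC. The Sp1 site was GGGCGG. The TATA box was TATAAA. The core site of estrogen-related receptors was AAGGTCA. Cox8b, the muscle form, held the TATA letters and 2 E boxes, while Cox8a held 2 matches of the ETS site and 1 E box. The TATA letters of Cox8b began 4 bases after the listed start, and 1 of its E boxes began 16 bases after it. In Cox8a, 1 ETS match began 32 bases after the listed start. The other matches in these 2 windows began before the start. Cox7a1 held 1 E box, and Cox7a2 held 1 Sp1 site and 1 E box. No matches overlapped in these 4 windows. A promoter entry was found for 73 of the 93 members. Among these, 32.9% held the NRF1 letters, against 10.1% of all 27025 promoters. The ETS letters stood in 21.9% of members and 9.12% of all promoters, and the receptor letters in 11% and 4.66%. E boxes stood in 71.2% of members and 72.2% of all promoters, the Sp1 letters stood in 43.8% and 35.9%, and the TATA letters in 9.59% and 14.2%. The median share of G and C was 57.3% in member promoters and 52.7% in all, and its part in these shares was not tested. These matches describe letters and show no binding.

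The ratio of the muscle to the widespread form compares genes within a library, so it does not change when a library is scaled by 1 factor. Transcripts of the forms differ in length, at 360 and 550 bases for Cox8b and Cox8a and 393 and 659 for Cox7a1 and Cox7a2. Those of Cox6a2 and Cox6a1 have 680 and 571 bases. The part of length in the ratios was not tested. Cox8b over Cox8a was 18.4 and 17.1 in the follistatin libraries of day 7 and 20.8 and 21.7 in those of day 14, against 23.7 and 24.6 in the controls of day 7 and 27.6 in that of day 14. All 4 follistatin ratios lay below all 3 control ratios (log2 difference of the ratio -0.38, exact two-sided permutation p = 0.0286, 0.171 after Benjamini-Hochberg adjustment over 6 tests). The unadjusted p is the smallest that 35 arrangements allow. The day 3 ratios were 16.8, 17.1, 18.8 and 21.7 in follistatin, against 19.9, 30.4 and 23.6 in control libraries, with overlap (log2 difference of the ratio -0.39, exact two-sided permutation p = 0.0857, 0.171 after Benjamini-Hochberg adjustment over 6 tests). Cox7a1 over Cox7a2 was 5.31, 5.62, 6.96 and 5.32 in the follistatin libraries of day 3, against 7.76, 7.36 and 7.01 in the controls, without overlap but close (log2 difference of the ratio -0.35, exact two-sided permutation p = 0.0571, 0.171 after Benjamini-Hochberg adjustment over 6 tests). It later averaged 4.83 ± 0.528 in follistatin and 5.78 ± 0.554 in control libraries (log2 difference of the ratio -0.26, exact two-sided permutation p = 0.114, 0.171 after Benjamini-Hochberg adjustment over 6 tests). Cox6a2 over Cox6a1 averaged 20.1 and 22.2 at day 3 and 25 and 25.4 later in follistatin and control libraries (log2 differences -0.12 and -0.027, exact permutation p = 0.6 and 0.8). None of the 6 tests passed the adjustment, and the ratios were chosen for testing after the gene values had been seen.

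**Figure D3:**
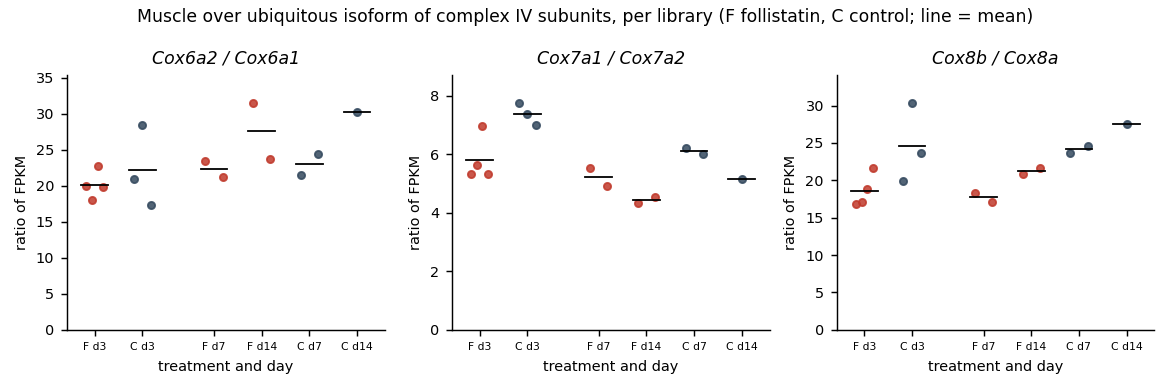
Ratio of the FPKM of the muscle form to that of the widespread form for 3 subunits of complex IV (vertical axis, from 0) in each library, with follistatin (F, red) left of control (C, dark) by day; the line is the mean. The Cox8b over Cox8a ratio of days 7 and 14 does not overlap between treatments, and Cox6a2 over Cox6a1 does.

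Of single complex IV genes, Cox8b had the smallest p at day 3, at 917, 1029, 1076 and 1081 FPKM in follistatin and 1171, 1394 and 1073 FPKM in control libraries (log2 change -0.24, 95% interval -0.46 to -0.0058, adjusted p = 0.316 by limma), and a change of -0.21 later (adjusted p = 0.509). Cox7a2 had 0.19 and 0.14 (adjusted p = 0.365 and 0.567). Cox7a2l, known as a factor for supercomplexes of complexes III and IV, had -0.19 and -0.14 (adjusted p = 0.362 and 0.502), and Cox6c -0.10 and -0.17 (adjusted p = 0.668 and 0.53). Cox4i1, the main form of subunit IV, lay at 1364 ± 335 FPKM in follistatin and 1286 ± 101 FPKM in control libraries of days 7 and 14, while Cox4i2, a form best known from lung, lay at 2.67 ± 1.72 and 3.05 ± 0.355 FPKM. Cox6b1 lay at 1124 ± 281 and 1078 ± 73.5 FPKM. The median over the complex was -0.084 for 16 tested genes at day 3 and -0.0054 for 15 at days 7 and 14.

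Complex V. Atp5b (chromosome 10, 128083273 to 128090391, plus strand), the catalytic beta subunit and on average over all libraries the highest of all members, lay at 1920, 2048, 2124 and 2063 FPKM in the follistatin libraries of day 3, against 2106, 2423 and 2099.5 FPKM in the controls, with overlap (log2 change -0.11, 95% interval -0.28 to 0.048, adjusted p = 0.508 by limma). It later lay at 2187 and 2042 FPKM (day 7) and 1892 and 1889.7 FPKM (day 14) in follistatin, against 2516 and 2239 FPKM (day 7) and 2175 FPKM (day 14) in control libraries, and only follistatin day 7 replicate 1 reached the control range (log2 change -0.21, 95% interval -0.44 to 0.031, adjusted p = 0.225). Atp5c1, the gamma subunit that turns within the catalytic ring, had changes of -0.11 and -0.13 (adjusted p = 0.615 and 0.398), and Atp5e, the epsilon subunit, of -0.10 and -0.024 (adjusted p = 0.493 and 0.948). Atp5k, a small membrane subunit, stood second on average over all libraries. In the later set it lay at 2032 ± 481 FPKM in follistatin and 1855 ± 267 FPKM in control libraries. The means of Atp5b there were 2003 and 2310 FPKM, so Atp5k was the higher of these genes in the later follistatin libraries. The median of the 16 genes was -0.086 at day 3 and 0.05 at days 7 and 14. Atp5sl, counted by its name, is known as an assembly factor of complex I, and lay at 18.8 ± 3.62 FPKM in follistatin and 24 ± 1.95 FPKM in control libraries of days 7 and 14 (log2 change -0.35, 95% interval -0.69 to -0.0073, adjusted p = 0.169). Without follistatin day 7 replicate 1 its change passed (-0.47, adjusted p = 0.0351, within 0.0351 to 0.585 over 19 settings).

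The genes Atp5g1, Atp5g2 and Atp5g3 encode the same c subunit, the rotating proton channel, behind different import signals. Atp5g3 held the most message, at 1281 ± 81.3 FPKM in follistatin and 1289 ± 94.1 FPKM in control libraries of day 3 and at 1728 ± 349 and 1401 ± 154 FPKM later (log2 change 0.29, 95% interval -0.10 to 0.68, adjusted p = 0.29). Atp5g2 lay at 89.7, 93.2, 118 and 95.2 FPKM in follistatin, against 121, 133 and 123 FPKM in control libraries of day 3. The highest follistatin library lay just below the lowest control (log2 change -0.35, 95% interval -0.58 to -0.11, adjusted p = 0.16 by limma), and without that library, follistatin replicate 3, the change passed (log2 change -0.43, adjusted p = 0.0374, within a range of 0.0374 to 0.46 over 17 settings). Its later change was 0.072 (adjusted p = 0.837). Atp5g1 had -0.10 and 0.14 (adjusted p = 0.777 and 0.61).

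The levels of Atp5g1 and Atp5g2 differed between the sets in both treatments alike. Atp5g2 averaged 429.7 FPKM in the later follistatin libraries and 99.2 FPKM in those of day 3, and its control means were 401 FPKM later and 126 FPKM at day 3. Such differences stood in members whose transcript has a near-identical copy elsewhere in the annotation (at least 95% identity over 200 bases or more), between which reads can be divided. Among 22 members with a copy, the ratio of control levels, days 7 and 14 over day 3, had a median of 1.43 and reached 3.19, and 11 were at 1.5 or more. Among 68 members without a copy and with at least 1 FPKM in every group, the median was 1.04, the range 0.728 to 1.24, and 0 reached 1.5. Follistatin libraries had medians of 1.43 with and 1.08 without a copy. The 11 were Atp5g1, Atp5g2, Atp5h, Atp5l, Cox7a2l, Ndufa12, Ndufab1, Ndufb4, Ndufs3, Ndufs5 and Uqcrb. The authors deposited separate comparisons for the 2 sets, and levels are compared here between treatments within a set, and the part of read assignment in the difference was not tested. Within the sets, members with a copy had medians of -0.10 and 0.045, and those without of -0.075 and -0.017.

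The spread among the follistatin libraries of days 7 and 14 was set beside transcript length. For 88 members with a mean of at least 10 FPKM over these 4 libraries, follistatin day 14 replicate 2 was the highest for 48 and follistatin day 7 replicate 1 for 36, while follistatin day 14 replicate 1 was the lowest for 55. Relative to the control mean, members with transcripts under 800 bases (40 genes) had a median of 0.22 in follistatin day 7 replicate 1 and 0.35 in day 14 replicate 2, against -0.18 and -0.21 in the other 2. The 47 longer members moved in the same directions, with 0.17 and 0.11, against -0.13 and -0.17. Of genes that are not members, 219 with transcripts under 800 bases also stood high in day 7 replicate 1 (0.37) and day 14 replicate 2 (0.46). In day 7 replicate 2 and day 14 replicate 1 their medians were 0.058 and -0.075. The 3861 longer ones stayed between -0.088 and -0.0049. The controls of the set lay between -0.11 and 0.064 for short members. The part of transcript length in the members' spread was not tested.

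**Figure D4:**
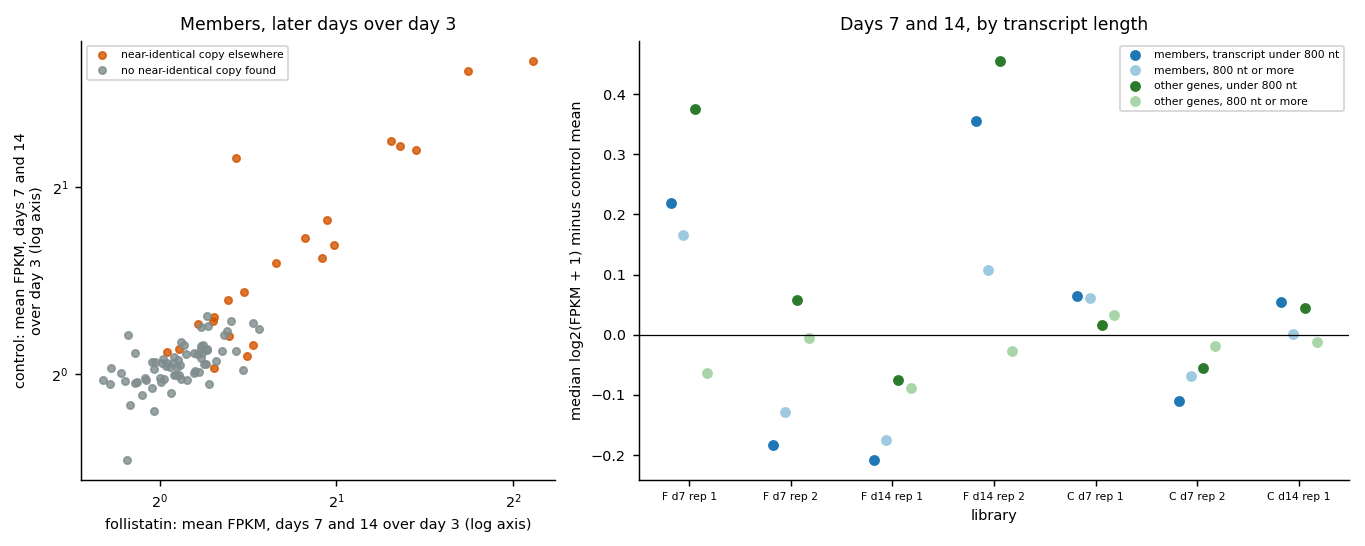
Left, the ratio of mean FPKM at days 7 and 14 over day 3 for each member, in follistatin (horizontal, log axis) and control libraries (vertical, log axis), coloured by whether a near-identical copy was found; the high ratios belong to members with a copy. Right, the median log2(FPKM + 1) minus the control mean in each library of days 7 and 14, for members and other genes by transcript length; follistatin day 7 replicate 1 and day 14 replicate 2 stand high for short transcripts.

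The genes around the chain were read from lists. Among assembly factors of all complexes 0 were called at day 3, with 29 of 42 tested genes above 0 and a median of 0.035; the unadjusted p was under 0.05 for 7 positive and 2 negative changes. In the later set 2 were called, both higher, where 2.24% of all genes were called higher, with 29 of 42 tested genes above 0 and a median of 0.10; the unadjusted p was under 0.05 for 10 positive and 0 negative changes. Lyrm2, a factor for the NADH-binding arm of complex I, rose to 18 ± 1.12 FPKM in follistatin, against 13.1 ± 0.75 FPKM in control libraries (log2 change 0.43, 95% interval 0.21 to 0.65, adjusted p = 0.0428 by limma). Sdhaf3, which helps build the iron-sulfur subunit of complex II, rose to 29.4 ± 2.4 FPKM, against 21.3 ± 0.543 FPKM (log2 change 0.44, 95% interval 0.21 to 0.67, adjusted p = 0.048). Both calls were lost in 10 and 11 of 19 settings. Among them were the loss of any 1 of the 3 control libraries (adjusted p = 0.133 to 0.183 for Lyrm2 and 0.147 to 0.198 for Sdhaf3) and the loss of follistatin day 7 replicate 2, day 14 replicate 1 or day 14 replicate 2 (adjusted p = 0.0606 to 0.072 and 0.0709 to 0.088). The 17 genes of electron carriers and coenzyme Q synthesis held no call, with 11 of 17 tested genes above 0 and a median of 0.011 at day 3 and 11 of 17 tested genes above 0 and a median of 0.068 later; the unadjusted p was under 0.05 for 1 positive and 0 negative changes at day 3 and the unadjusted p was under 0.05 for 3 positive and 1 negative changes later. Cycs, cytochrome c, lay at 326 ± 36.7 FPKM in follistatin and 265 ± 19 FPKM in control libraries of days 7 and 14 (log2 change 0.30, 95% interval 0.015 to 0.58, adjusted p = 0.16 by limma). Its day 3 levels were 56 ± 3.36 and 54.3 ± 7.9 FPKM. The level of Cycs thus differed between the sets in both treatments, and near-identical copies were looked for in members only. The 22 genes of mitochondrial protein import held no call either, with 18 of 22 tested genes above 0 and a median of 0.051 at day 3 and 17 of 22 tested genes above 0 and a median of 0.15 later. Here the unadjusted p was under 0.05 for 4 positive and 0 negative changes at day 3 and the unadjusted p was under 0.05 for 7 positive and 1 negative changes later.

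Vdac1, the main channel of the outer mitochondrial membrane, was the 1 called gene in either set among 10 tested genes of ATP synthase partners and adenine nucleotide carriers, where 0.568% of all genes were called lower at day 3 and 3.27% at days 7 and 14. It fell to 726, 729, 727 and 778 FPKM in the follistatin libraries of day 3, against 919, 955 and 924 FPKM in the controls (log2 change -0.33, 95% interval -0.46 to -0.21, adjusted p = 0.0222 by limma). It likewise fell to 653 and 712 FPKM (day 7) and 642 and 783 FPKM (day 14) in follistatin, against 1049 and 985 FPKM (day 7) and 1054 FPKM (day 14) in control libraries (log2 change -0.56, 95% interval -0.81 to -0.32, adjusted p = 0.0288). The groups did not overlap in either set. The call was lost in 10 of 17 settings at day 3 and 9 of 19 later. It was lost without any 1 of the 3 control libraries (adjusted p = 0.0915 to 0.107 at day 3 and 0.1 to 0.165 later), without follistatin replicate 1, 2 or 3 at day 3 (0.0603 to 0.0768) and without follistatin day 7 replicate 2 or day 14 replicate 1 later (0.0539 to 0.0564). Of the 10 genes, 5 lay above 0 at day 3 and 8 later, against 52.6% and 39.2% of all genes tested.

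Mb, the muscle oxygen store myoglobin and a marker of oxidative fibres, fell at days 7 and 14 to 1406 and 803 FPKM (day 7) and 525 and 811 FPKM (day 14) in follistatin, against 4294 and 3013 FPKM (day 7) and 3087 FPKM (day 14) in control libraries (log2 change -2.04, 95% interval -2.74 to -1.33, adjusted p = 0.0148 by limma). The day 3 levels were 2232 ± 342 FPKM in follistatin and 3728 ± 721 FPKM in control libraries, without overlap (log2 change -0.74, 95% interval -1.09 to -0.38, adjusted p = 0.0647). The later call was lost without control day 7 replicate 1 (adjusted p = 0.0885), without control day 14 replicate 1 (adjusted p = 0.066) in the day 7 libraries alone (log2 change -1.76, adjusted p = 0.171) and with a replicate block (adjusted p = 0.0747), and the adjusted p ran from 0.00033 to 0.171 over 19 settings.

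The 25 regulators of mitochondrial biogenesis held no call in either set, with 13 of 25 tested genes above 0 and a median of 0.013 at day 3 and 3 of 25 tested genes above 0 and a median of -0.34 at days 7 and 14. An unadjusted p under 0.05 was found for 9 in the later set, all with negative changes, where 19.3% of all genes tested were lower at this p and 39.2% lay above 0. At day 3 it was found for 2, both negative, where 6.46% of all genes were. Ppargc1a, the coactivator PGC-1alpha, lay at 5.54 and 8.29 FPKM (day 7) and 7.48 and 3.68 FPKM (day 14) in follistatin, against 13 and 10.1 FPKM (day 7) and 9.86 FPKM (day 14) in control libraries. The groups did not overlap (log2 change -0.76, 95% interval -1.31 to -0.22, adjusted p = 0.0907 by limma). The day 3 levels were 10.8, 13.3, 10.3 and 11.3 FPKM in follistatin, against 8.76, 10.2 and 9.76 FPKM in control libraries, so that every follistatin library was above every control (log2 change 0.23, 95% interval -0.0027 to 0.46, adjusted p = 0.333). The difference between the sets was -0.99 on the log2 scale (adjusted p = 0.186). Gabpa and Nrf1, whose proteins bind the ETS and NRF1 motifs named above, lay at 7.14 ± 1.37 and 3.28 ± 0.423 FPKM in follistatin, against 10 ± 0.443 and 4.4 ± 0.414 FPKM in control libraries of days 7 and 14. Their log2 changes were -0.45 and -0.34 (adjusted p = 0.0937 and 0.11), without overlap. Exons of Gabpa overlap those of the member Atp5j on the other strand, and the strand setting of the counting is not given in the sources used here. At day 3 the changes were -0.027 and -0.17 (adjusted p = 0.934 and 0.481). Esrra, an estrogen-related receptor, had -0.22 and -0.36 in the 2 sets (adjusted p = 0.447 and 0.206), Ppargc1b 0.20 and -0.30 (adjusted p = 0.57 and 0.339), and Tfam, which packs and transcribes mitochondrial DNA, 0.17 and -0.0028 (adjusted p = 0.417 and 0.988).

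**Figure D5:**
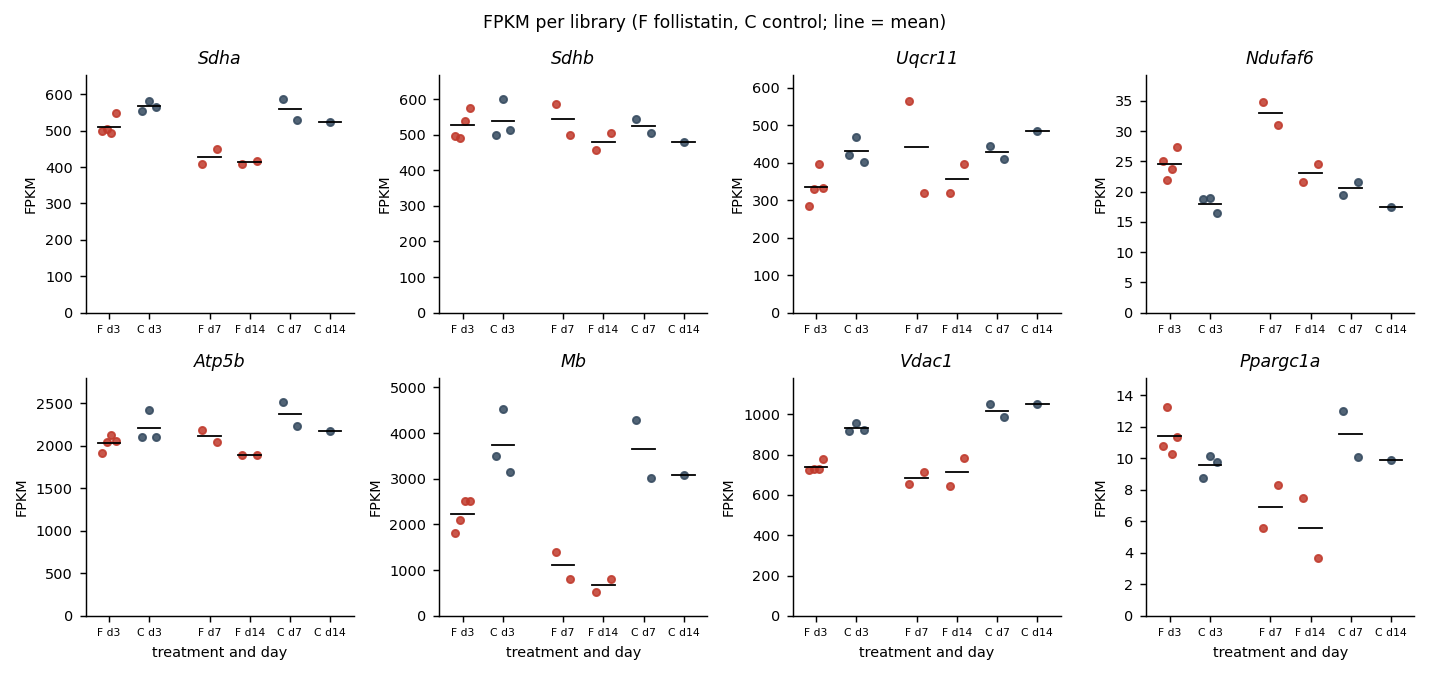
FPKM (vertical axis, from 0) of 5 members and of Mb, Vdac1 and Ppargc1a in each library, with follistatin (F, red) left of control (C, dark) by day; the line is the mean. Sdha, Mb and Vdac1 lie below all controls in every follistatin library of both sets, and Sdhb and Atp5b overlap at day 3.

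Markers of other cells were read beside these values, and their part in them was not tested. Of all genes tested, 19.3% were lower at an unadjusted p under 0.05 in the later set and 6.46% at day 3. In the later set 3.27% of all genes were called lower. In whole muscle, fewer cells of a type and less message per cell cannot be told apart. In the later set the 8 endothelial markers summed to 75 to 126 FPKM in follistatin and 140.2 to 189 FPKM in control libraries, with 1 called (Tek, lower) of 8 tested and 6 lower at an unadjusted p under 0.05. The 7 markers of smooth muscle and pericytes summed to 46.1 to 111 and 143 to 194 FPKM in follistatin and control libraries, with 0 called and 5 lower at that p, and those of macrophages to 58.9 to 191 and 37 to 105 FPKM, with 0 of 6 tested called and 0 at that p. The 7 slow fibre markers summed to 53.4 to 94.2 and 69.5 to 126 FPKM, with 0 called and 1 lower at that p. At day 3 no marker of any list was called. The unadjusted p was under 0.05 for 3 of 8 endothelial and 4 of 7 smooth muscle and pericyte markers, all with negative changes, for 1 of 4 tested adipocyte markers and for none of the macrophage and slow fibre markers. The smooth muscle and pericyte sums of day 3 were 193 to 246 FPKM in follistatin and 245 to 269 FPKM in control libraries, which overlapped, and endothelial sums were 113 to 129 FPKM in follistatin and 139 to 148 FPKM in control libraries. The adipocyte markers summed to 213 to 359.7 and 376 to 481 FPKM at days 7 and 14 and to 336 to 366 and 397 to 447 FPKM at day 3, with none called and 1 of 3 tested at that p later. The fibroblast, Schwann cell and red blood cell lists held 0 calls in either set, with 0, 1 and 0 genes at that p in the later set and 2, 0 and 1 at day 3. No marker of these lists was listed at 0 in all libraries of a group, apart from the muscle fibre genes named above.

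In the authors' deposited table, 6.25% of all genes with a Cuffdiff test at day 3 were marked significant, 3.19% as lower. Of 90 members with a test there, 3 were marked, all lower. The authors' deposited table gives these as Atp5g2 (log2 ratio -0.37, q = 0.0345), Uqcr11 (log2 ratio -0.39, q = 0.0121) and Uqcrq (log2 ratio -0.34, q = 0.0209), with log2 ratios of follistatin over control. For days 7 and 14, the authors' deposited table marked 17.8% of all tested genes as significant, 6.64% as higher. Of 92 tested members it marked 1, and this was Ndufaf6 (log2 ratio 0.52, q = 0.0369). Sdha was not marked in the authors' deposited table (log2 ratio -0.39, q = 0.136).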

How the data were processed

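Poly(A) RNA of whole tibialis anterior muscle was sequenced in 14 libraries made with an Illumina TruSeq kit, per the labels. The authors aligned reads with TopHat to mm10 and computed FPKM with Cuffdiff, per the submitters' processing notes; versions, annotation and strand setting are not given in the sources used here. The deposited tables of the authors' own comparisons hold log2 fold changes, Cuffdiff test scores, p-values and q-values. Of 24386 genes per file, 27 with symbols turned into dates were left out, and so were genes marked as having too many reads (4 at day 3, 31 at days 7 and 14) from the tests.

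The sets were modelled separately by limma 3.58.1 with a trended prior (R 4.3.3), two-sided, taking log2(FPKM + 1) of genes that averaged 1 FPKM or more; the added 1 makes changes of low genes smaller. The difference between sets was an interaction over 14 libraries. Read counts were not used here: ratios of low values (under 0.5 FPKM) of day 3 libraries to control day 3 replicate 1 met whole-number ratios (tolerance 0.02, log2) in 79.3% to 83.9% of genes, with a relative depth of 0.683 to 1.28, and no single depth emerged for days 7 and 14. Copies and positions came from GENCODE M21 (BLAST+ 2.17.0). The text names, per set and complex, the 3 subunits with the smallest p, the highest gene of each complex, isoform sets, the main regulators and called list genes; Ndufs5, Ndufaf1, Ndufaf4, Ndufaf6, Atp5k and Atp5sl were named after their values were seen, as the isoform ratios were. Members and lists were chosen with earlier results of these data known. The pipeline was tested on simulated data. Alternatives are given in the closing section.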

Additional observations from a re-analysis of the deposited data

Results flagged for a closer look

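Of 112 sets of 4 follistatin libraries examined, 3 held a library far from the other 3, where chance gives about 1 in 20. Vdac1 at day 3 lay at 726, 729, 727 and 778 FPKM, where follistatin replicate 4 stood apart (gap over range 0.943). Atp5e at day 3 lay at 1069.8, 1067, 1121 and 1064 FPKM, where replicate 3 stood apart (gap over range 0.896). Nrf1 at days 7 and 14 lay at 3.44 and 3.51 FPKM in the day 7 libraries and 3.52 and 2.65 FPKM in the day 14 libraries, where day 14 replicate 2 stood apart (0.915); this set joins 2 days.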

How the results depend on the processing

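The count of called members was 0 in 15 of 17 alternative settings at day 3, in 16 of 19 at days 7 and 14, and in all 23 for the difference between the sets. At day 3 a minimum mean of 5 FPKM, with fewer genes tested, called 1 (Ndufaf6, adjusted p = 0.0469 by limma). In the later set quantile normalization called 2 (Sdha and Sdhc), and all 14 libraries in 1 fit called 2 (Sdha and Ndufaf6). Leaving out 1 library gave 0 to 1 in each set: 1 without follistatin day 3 replicate 3 (Atp5g2) and 1 without follistatin day 7 replicate 1 (Atp5sl). The cause was not tested. With 1 library left out, the member median ran from -0.11 to -0.01 at day 3 and from -0.078 to 0.075 later. The later median of complex II, -0.12, was -0.0095 with median ratio rescaling and -0.25 with quantile normalization. The later Cox8b over Cox8a ratio had an exact permutation p = 0.0571 with 1 FPKM added, an alternative chosen after seeing the data.

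Counts over all genes moved more. At day 3, 168 genes were called, against 266 without small RNA genes and 39 to 165 without 1 library. In the later set 608 were called, against 963 without small RNA genes, 284 with no filter, 2071 with all 14 libraries in 1 fit, 30 in the day 7 libraries and 43 to 907 without 1 library. The difference between the sets gave 10, against 2 with no filter, 6 with rescaling, 24 with the genes of too many reads kept and 2 to 32 without 1 library.

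Deviations of same-numbered libraries had correlations of -0.0562 to 0.108, against -0.12 to 0.0894 for other pairs. With 3 or 4 libraries in a group, these values cannot tell whether libraries were paired. A fit with day and number as a block, in which follistatin day 3 replicate 4 and day 14 replicate 2 have no partner, called 0 members in each set. It called 13 genes at day 3, 0 later (2585 at an unadjusted p under 0.05) and 3 for the difference, and the later Fst change was 8.19 (adjusted p = 0.0585). Depth in reads is not known, so the precision rests on the spread among 3 or 4 libraries.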
